A study of Mus musculus with 8 samples.

Results

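Aminoacyl-tRNA synthetases are the enzymes that load each amino acid onto its own tRNA, and a set of 36 of their genes was examined in gastrocnemius (GAS) muscle after knockdown of MYTHO. The set was chosen by name. It holds 20 genes for the enzymes of the cytosol and 16 nuclear genes for the enzymes of the mitochondrion. All 36 were found among the 22206 probe sets of the array, each with 1 probe set, and all 36 carried the authors' flag for expression in both groups.

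The muscles came from adult male C57/Bl6j mice injected at about 10 weeks of age and studied 12 weeks (3 months) later, at 22 weeks. The MYTHO-KD group (4 arrays) had received an adeno-associated virus of serotype 1 (AAV) encoding a hairpin (sh-RNA) that targets *Mytho*, and the scramble group (4 arrays) had received the same kind of AAV with a scramble sh-RNA, so both groups carry a virus and a hairpin. According to the methods, the hairpins were driven by a U6 promoter, which is not restricted to muscle fibres, and the scramble virus went into the contralateral leg of the injected mice. For each probe set the deposited table holds a group's average and its standard deviation (SD), not the signals of single arrays, so values are given as mean ± SD over 4 arrays and the overlap of single arrays between groups cannot be shown. The table does not tie arrays to animals, and where legs share an animal the arrays are not fully independent. Signals are on a log2 scale, on which a difference of 1 is a 2-fold change.

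Each synthetase recognises 1 amino acid and the tRNAs that carry it, joins them with energy from ATP, and releases the charged tRNA to the ribosome. The enzymes fall into class I and class II, which differ in the fold of the catalytic domain. Cytosolic charging feeds all cytosolic protein synthesis, and several of these enzymes sit together in a multisynthetase complex held by the scaffold proteins Aimp1, Aimp2 and Eef1e1. Mitochondrial enzymes, encoded in the nucleus and imported, charge the tRNAs used for the few respiratory chain proteins made inside the organelle. Many cytosolic synthetase genes are known targets of ATF4, the transcription factor of the amino acid response, and inherited defects of either kind of enzyme cause disease of nerve, muscle or other tissues.

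*D230025D16Rik* (*Mytho*) itself had a signal of 7.71 ± 0.66 in MYTHO-KD and 10.02 ± 0.37 in scramble, a log2 difference of -2.31 (adjusted p = 0.0138), in the direction the labels give. The defining fibre genes *Acta1*, *Myh4* and *Atp2a1* were at the top of the scale (19.93) in both groups, as fits a muscle sample. Over all probe sets the median difference was -0.01, and 61 (0.275%) passed an adjusted p under 0.05. Markers of other cell types differed more. All 15 macrophage markers had a higher average in MYTHO-KD (8 of 15 with an unadjusted p under 0.05), as did all 12 fibroblast and matrix markers (7 of 12) and all 7 endothelial markers (2 of 7). These calls are 53.3%, 58.3% and 28.6% of their lists, against 12% of all probe sets, of which 46.9% had a higher average. Because GAS samples are bulk tissue, a change in the number of cells of a type and a change in RNA per cell cannot be told apart in any value given here.

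No synthetase reached the threshold of the study's methods, which asks for at least a 2-fold change together with an unadjusted p under 0.05. The share of all probe sets past that threshold was 1.12%. The 36 differences between MYTHO-KD and scramble ran from -0.59 for *Iars*, the isoleucine enzyme, to 0.57 for *Farsa*, the catalytic subunit of the phenylalanine enzyme. At an unadjusted p under 0.05 and any fold, 4 of 36 genes (11.1%) were called, with *Farsa* and *Yars2* higher and *Iars* and *Sars* lower in MYTHO-KD, against 12% of all probe sets (6.48% higher, 5.52% lower). The share of synthetases called was thus close to that of the whole array. None passed limma's moderated test once p-values were adjusted for the whole array by Benjamini-Hochberg, and the lowest adjusted p among the 36 was 0.154.

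**Figure D1:**
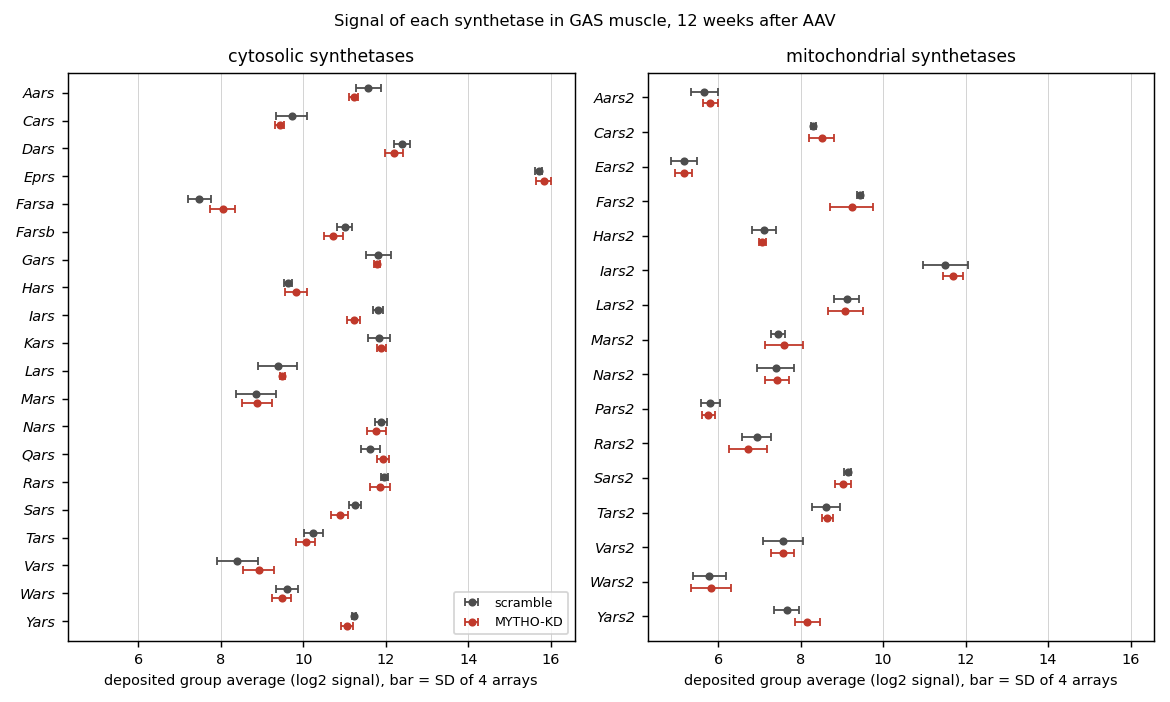
Mean signal of each synthetase in GAS muscle (log2, horizontal axis) in scramble (grey) and MYTHO-KD (red), with bars of 1 SD over 4 arrays, for the 20 cytosolic genes (left) and the 16 mitochondrial genes (right). The groups lie close together for most genes, with the bars of *Iars* well apart (11.22 ± 0.16 against 11.81 ± 0.12).

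The 4 arrays per group were enough to bound most of the differences. The 95% confidence interval lay wholly within 2-fold in either direction for 34 of 36 synthetases (94.4%, against 89.2% of all probe sets), the exceptions being *Farsa* and *Vars*, whose upper limits were 1.01 and 1.10. It lay within 1.5-fold (0.585 on the log2 scale) for 20 of 36. The median synthetase differed by 0.15 in size, against 0.18 over all probe sets, with a median half-width of the interval of 0.41. The half-width ran from 0.33 to 0.58, which limits the size of difference that 4 arrays per group could tell from 0.

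Across the set there was no common direction. The median log2 difference was -0.02, with 16 averages higher, 19 lower and 1 equal in MYTHO-KD. For comparison, 46.9% of all probe sets had a higher and 51.4% a lower average, around a median of -0.01.

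**Figure D2:**
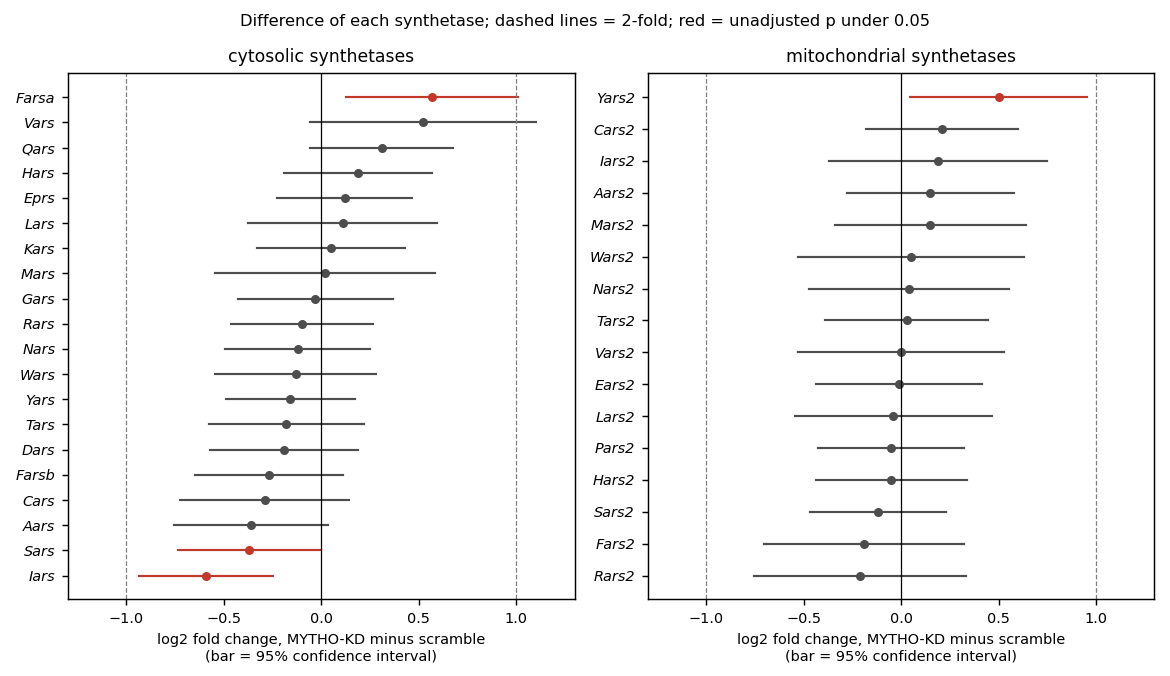
Difference between MYTHO-KD and scramble for each synthetase (log2, horizontal axis), sorted within the cytosolic (left) and mitochondrial (right) genes, with 95% confidence intervals as bars and dashed lines at 2-fold. The genes in red (*Farsa*, *Sars*, *Iars* and *Yars2*) have an unadjusted p under 0.05, and no point estimate reaches a dashed line.

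Among the 20 cytosolic enzymes, 12 had a lower and 8 a higher average in MYTHO-KD, with a median of -0.11. *Iars* stood lowest. This gene lies at chr13:49682100-49734267 on the plus strand (mm10), and its signal was 11.22 ± 0.16 in MYTHO-KD and 11.81 ± 0.12 in scramble. The difference of -0.59 (95% interval -0.935 to -0.245) corresponds to 66.4% of the scramble signal (unadjusted p = 0.00291, adjusted p = 0.154). The gap was several times the SD of either group, yet it did not pass the adjustment over the array. *Iars* was also the only synthetase to pass a 1.5-fold threshold with an unadjusted p under 0.05, 1 of 36 genes (2.78%) against 5.80% of all probe sets.

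*Sars*, which charges serine and also starts the route to selenocysteine, lies at chr3:108424864-108445259 on the minus strand. It had 10.88 ± 0.21 in MYTHO-KD and 11.25 ± 0.15 in scramble (difference -0.37, interval -0.737 to -0.00273, unadjusted p = 0.0486, adjusted p = 0.413). Its interval ended just short of 0, and when differences were centred on the array's median the p was 0.054. *Aars*, the alanine enzyme, had 11.22 ± 0.11 and 11.58 ± 0.30 (difference -0.36, interval -0.755 to 0.0353, unadjusted p = 0.0706), from a probe set that the table assigns to both *Aars* and its neighbour *Exosc6*, so the gene behind the signal is uncertain. These 3 were the lowest of the cytosolic group.

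*Iars*, *Sars* and *Aars* all belong to the 12 cytosolic synthetases listed here as ATF4-responsive. Of those 12, 9 had a lower average in MYTHO-KD, with a median of -0.145, where 51.4% of all probe sets were lower. The other members were *Cars* (-0.29), *Tars* (-0.18), *Yars* (-0.16), *Wars* (-0.13), *Nars* (-0.12), *Gars* (-0.03), *Mars* (0.02), *Lars* (0.11) and *Eprs* (0.12), each with an interval that included 0. The 8 cytosolic enzymes outside that list had a median of 0.12, with 5 averages higher and 3 lower. No test was made between these lists, whose ranges overlap (-0.59 to 0.12 against -0.27 to 0.57).

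The element through which ATF4 and its partners act on such genes, the amino acid response element, has a core that can be written TGATGNAA, where N is any base. RefSeq promoter windows (GRCm38.p6, 250 bases before to 50 after the annotated start) were present for 27 of the 36 genes. Those not matched were *Cars*, *Hars*, *Lars*, *Nars*, *Rars*, *Vars*, *Wars*, *Hars2* and *Pars2*. Read on both strands, the core occurred in the windows of 5 of 13 cytosolic genes (38.5%) and 0 of 14 mitochondrial genes, against 1219 of 27025 genes with a window (4.51%). The same letters were present in 7 of 19 genes of the ATF4 pathway list (36.8%). The stretches below show 1 match for each of the 5 cytosolic synthetases, with those of *Asns* and *Atf3* for comparison. Each is written 5′ to 3′ on the strand of the gene, with the core in capitals, which reads in reverse complement in all but *Yars* and *Asns*.
*Iars*, chr13:49682127-49682154, plus strand, core at position 8 from the start: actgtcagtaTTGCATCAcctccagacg
*Aars*, chr8:111033841-111033868, plus strand, position 10: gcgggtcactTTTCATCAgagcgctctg
*Tars*, chr15:11399656-11399683, minus strand, position -15: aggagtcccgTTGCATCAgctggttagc
*Yars*, chr4:129189896-129189923, plus strand, position 4: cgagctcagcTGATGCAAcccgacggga
*Gars*, chr6:55037961-55037988, plus strand, position -30: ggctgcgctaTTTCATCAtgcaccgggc
*Asns*, chr6:7693215-7693242, minus strand, position -23: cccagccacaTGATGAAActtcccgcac
*Atf3*, chr1:191183426-191183453, minus strand, position -110: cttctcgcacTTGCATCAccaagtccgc

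All 5 cytosolic synthetases with the core had a lower average in MYTHO-KD, from -0.59 (*Iars*) to -0.03 (*Gars*), with a median of -0.18. Every gene of these 5 is also on the ATF4-responsive list above, so the same values are counted again here and are not separate evidence. Of these 5 only *Iars* had an interval that excluded 0, and the value of *Aars* comes from the probe set shared with *Exosc6*. Of the 8 whose window lacked the core, 3 were lower and 5 higher, from -0.37 (*Sars*) to 0.57 (*Farsa*), with a median of 0.035. Among these 8 the intervals of *Farsa* and *Sars* excluded 0. A comparison over the array took only probe sets whose symbol was not repeated and matched a promoter window. The 594 of them with the core had a median of -0.035, against -0.01 for the 14853 without it. A lower average was found for 53.7% and 50.9% of them, and an unadjusted p under 0.05 for 11.4% and 12.3%. The groups of synthetases were not tested against each other. A match of letters is a description of the window and not a known binding site. The cAMP response element TGACGTCA, which does not overlap these matches, occurred in none of the 27 synthetase windows and in 549 of 27025 genes (2.03%).

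**Figure D3:**
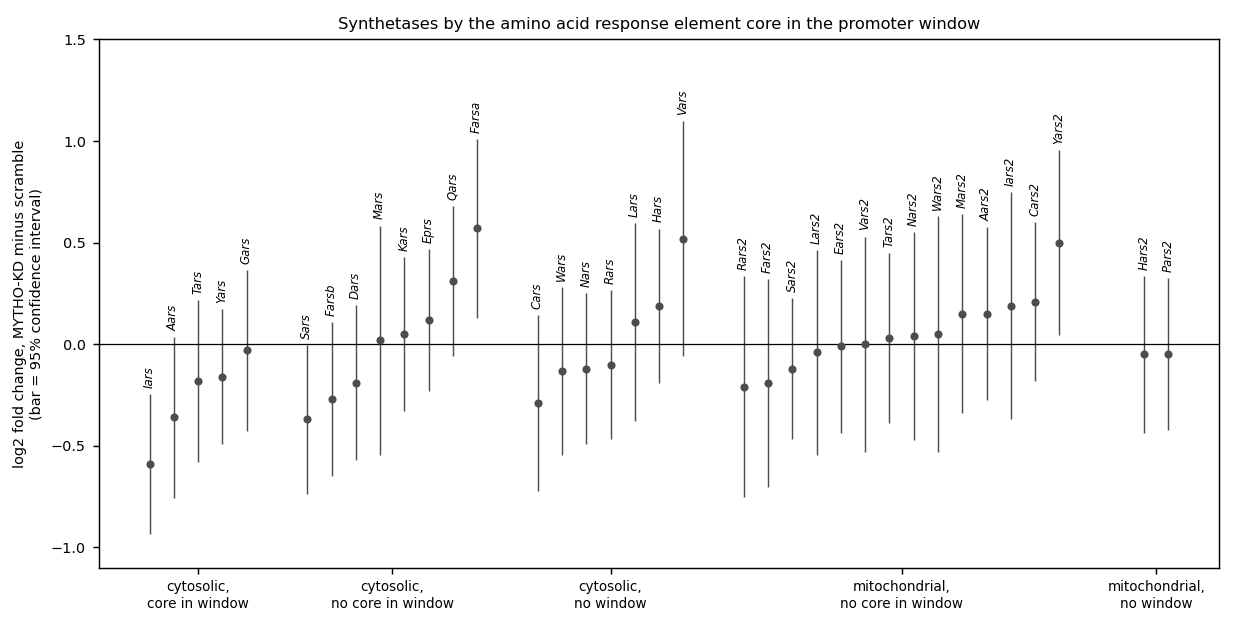
Difference between MYTHO-KD and scramble (log2, vertical axis, bars are 95% confidence intervals) for synthetases grouped by compartment and by the core of the amino acid response element in the promoter window. The 5 cytosolic genes with the core lie between -0.59 and -0.03, and the 8 without it between -0.37 and 0.57. Intervals exclude 0 for *Iars* among the 5 and for *Farsa* and *Sars* among the 8.

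The higher end of the cytosolic group was held by *Farsa*, *Vars* and *Qars*. *Farsa* (chr8:84856986-84869257, plus strand) had 8.05 ± 0.30 in MYTHO-KD and 7.48 ± 0.28 in scramble, a difference of 0.57 (interval 0.127 to 1.01, unadjusted p = 0.016, adjusted p = 0.289), which is 148% of the scramble signal. Its partner *Farsb*, which forms the other part of the same phenylalanine enzyme, lay on the other side of 0, with 10.73 ± 0.23 and 11.00 ± 0.17 (difference -0.27, interval -0.65 to 0.11, unadjusted p = 0.147). The intervals of the subunits do not overlap, although the difference between their changes was not tested, since that needs the single arrays. *Vars*, the valine enzyme, had 8.92 ± 0.38 and 8.40 ± 0.50 (difference 0.52, interval -0.0566 to 1.10, unadjusted p = 0.0730). *Qars*, the glutamine enzyme, had 11.94 ± 0.14 and 11.63 ± 0.22 (difference 0.31, interval -0.0584 to 0.678, unadjusted p = 0.0916). Neither of these passed the test.

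The 8 enzymes of the multisynthetase complex did not share a direction. *Qars* (0.31), *Eprs* (0.12), *Lars* (0.11), *Kars* (0.05) and *Mars* (0.02) had higher averages in MYTHO-KD, and *Rars* (-0.10), *Dars* (-0.19) and *Iars* (-0.59) lower ones, for a median of 0.035. Only *Iars* had an unadjusted p under 0.05. The 12 cytosolic enzymes that work outside the complex had a median of -0.145, with 3 higher and 9 lower, *Hars* (0.19) being the third with a higher average beside *Farsa* and *Vars*. *Eprs*, the fused enzyme for glutamate and proline, had signals of 15.83 ± 0.19 and 15.71 ± 0.09 and an interval of -0.228 to 0.468.

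The scaffold proteins of the complex were likewise not called. *Aimp2*, which binds several of the enzymes, had 13.12 ± 0.51 in MYTHO-KD and 12.96 ± 0.53 in scramble (difference 0.16, unadjusted p = 0.600). *Eef1e1*, also called Aimp3, differed by 0.12 (unadjusted p = 0.626) and *Aimp1* by 0.04 (unadjusted p = 0.867). Their SDs of 0.33 to 0.53 were wide beside the median of 0.27 over all probe sets.

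The 16 mitochondrial enzymes differed less in size, with a median absolute difference of 0.085 against 0.185 for the cytosolic group, although their SDs were wider (median 0.315 in scramble, against 0.225). Their median difference was 0.015, with 8 averages higher, 7 lower and 1 equal. All 16 intervals lay within 2-fold. Glycine and lysine have no gene of their own in this group, since *Gars* and *Kars* each encode both the cytosolic and the mitochondrial form. The difference in size between the compartments was not tested.

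*Yars2*, the mitochondrial tyrosine enzyme (chr16:16302965-16309640, plus strand), was the single mitochondrial gene called. It had 8.16 ± 0.30 in MYTHO-KD and 7.66 ± 0.31 in scramble, a difference of 0.50 (interval 0.0451 to 0.955, unadjusted p = 0.0339, adjusted p = 0.370). The call was lost without variance moderation (unadjusted p = 0.0596). The next highest were *Cars2* for cysteine, with 8.51 ± 0.30 and 8.30 ± 0.06 (difference 0.21, interval -0.179 to 0.599, unadjusted p = 0.262), and *Iars2* for isoleucine, with 11.70 ± 0.24 and 11.51 ± 0.55 (difference 0.19, interval -0.368 to 0.748, unadjusted p = 0.472). Both differences were within the larger of their SDs.

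At the lower end, *Rars2* for arginine had 6.72 ± 0.46 and 6.93 ± 0.35 (difference -0.21, interval -0.754 to 0.334, unadjusted p = 0.416). *Fars2* for phenylalanine had 9.24 ± 0.52 and 9.43 ± 0.07 (difference -0.19, interval -0.701 to 0.321, unadjusted p = 0.433). *Sars2* for serine had 9.02 ± 0.19 and 9.14 ± 0.09 (difference -0.12, interval -0.468 to 0.228, unadjusted p = 0.467). Each of these 3 differences was smaller than the larger of the gene's SDs, although those of *Fars2* and *Sars2* exceeded the SD in scramble. The other mitochondrial genes were *Aars2* and *Mars2* (0.15 each), *Wars2* (0.05), *Nars2* (0.04), *Tars2* (0.03), *Vars2* (0.00), *Ears2* (-0.01), *Lars2* (-0.04), and *Hars2* and *Pars2* (-0.05 each).

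For 14 amino acids the set held a separate enzyme for each compartment, with *Farsa* taken for cytosolic phenylalanine. Their differences pointed opposite ways for 10 of the 14, the same way for 3 (methionine, arginine and serine), and for valine the mitochondrial difference was 0.00. Among the 10, *Hars2* (-0.05), *Lars2* (-0.04), *Nars2* (0.04), *Tars2* (0.03) and *Wars2* (0.05) lay near 0, each with an interval that included 0. No share of opposite signs among unrelated genes was worked out, so the count does not show that the compartments differ in direction. The other cytosolic phenylalanine subunit, *Farsb* (-0.27), pointed the same way as *Fars2* (-0.19). Glutamate and proline, which share the fused *Eprs* (0.12) in the cytosol, were not counted, and *Ears2* (-0.01) and *Pars2* (-0.05) lay on the other side of 0 from it. Among the pairs as counted, the widest gaps were for isoleucine, with -0.59 for *Iars* and 0.19 for *Iars2*, for phenylalanine, with 0.57 for *Farsa* and -0.19 for *Fars2*, and for tyrosine, with -0.16 for *Yars* and 0.50 for *Yars2*. In no pair did both enzymes have an unadjusted p under 0.05, and the gap within a pair was not tested. By catalytic fold, the 19 class I enzymes had a median of 0.02 (10 higher, 8 lower, 1 equal) and the 17 class II enzymes one of -0.05 (6 higher, 11 lower). In each class 2 genes were called at an unadjusted p under 0.05 (10.5% and 11.8%, against 12% of all probe sets).

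The genes that help or follow the synthetases were listed by role. Mitochondria charge glutamine by an indirect route in which the amidotransferase subunits Qrsl1, Gatb and Gatc convert a glutamate already bound to the tRNA. Of the 5 genes on the list of mitochondrial helpers, 1 had an unadjusted p under 0.05 (20%, against 12% of all probe sets). This was *Qrsl1*, which was lower with 7.99 ± 0.17 in MYTHO-KD and 8.48 ± 0.25 in scramble (difference -0.49, interval -0.877 to -0.103, unadjusted p = 0.0174, adjusted p = 0.30).

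All 6 genes on the list for selenocysteine, whose route begins with *Sars*, had lower averages in MYTHO-KD, with a median of -0.375, where 51.4% of all probe sets were lower. The list is wider than charging, since *Secisbp2* and *Eefsec* act when selenocysteine is put into protein. At an unadjusted p under 0.05, 2 of the 6 (33.3%) were called, against 12% of all probe sets. *Sephs1*, a relative of the selenophosphate synthetase, had 7.54 ± 0.23 and 8.12 ± 0.25 (difference -0.58, interval -0.985 to -0.175, unadjusted p = 0.00894, adjusted p = 0.232). *Pstk*, the kinase that acts on the serine loaded by Sars, had 10.47 ± 0.30 and 10.94 ± 0.29 (difference -0.47, interval -0.917 to -0.0231, unadjusted p = 0.0408, adjusted p = 0.390), and its p was 0.0652 without variance moderation. The other 4 did not pass the test, and *Secisbp2*, also named after its value was seen, had the smallest difference (-0.05, interval -0.495 to 0.395).

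Lists of genes that make and mature tRNA held few calls, against 12% of all probe sets. Of 17 genes of tRNA maturation and export, 1 (5.88%) had an unadjusted p under 0.05, the tRNA 3′ end nuclease *Elac1* (-0.40, unadjusted p = 0.0494). Of 21 genes of RNA polymerase III and its factors, 1 (4.76%) did, the initiation factor *Brf2* (-0.53, unadjusted p = 0.0418). The call on *Elac1* was lost with a trend, with unequal variances and after centring, and that on *Brf2* without variance moderation and with unequal variances. The lowest difference of the polymerase list, named after its value was seen, was that of the subunit *Polr3b* (-0.57, interval -1.21 to 0.0686), which did not pass the test. Of 7 genes of editing and release of aminoacyl-tRNA, none did. The medians of the 3 lists were 0.04, -0.05 and -0.02.

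**Figure D4:**
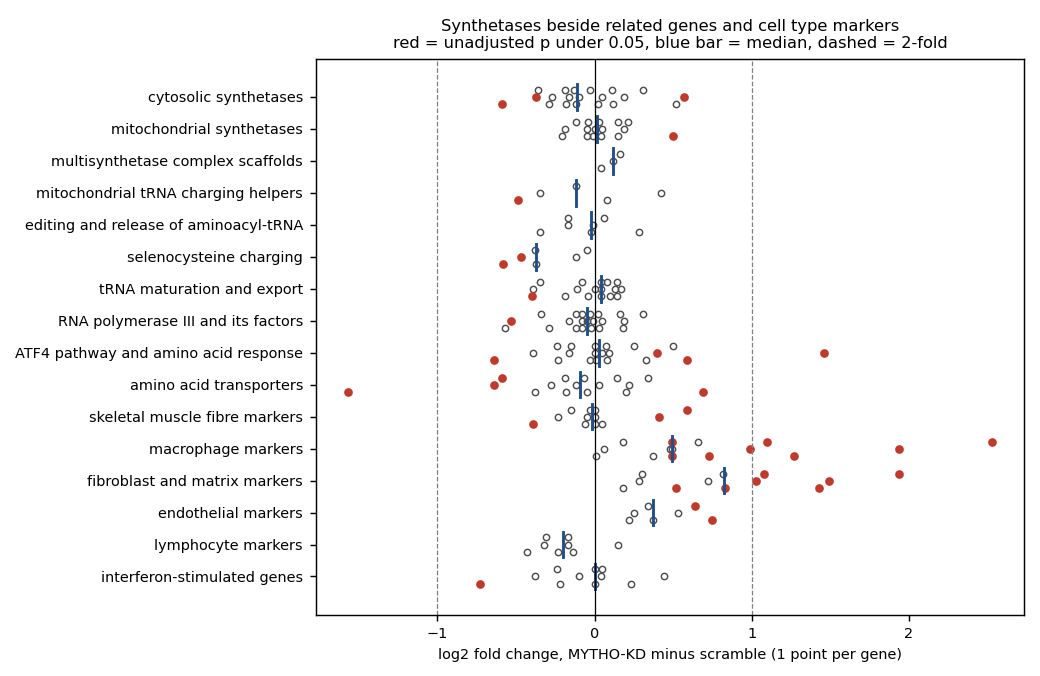
Difference between MYTHO-KD and scramble (log2, horizontal axis) for the synthetases and the related lists of genes, 1 point per gene, with the median of each list as a blue bar, genes with an unadjusted p under 0.05 in red and dashed lines at 2-fold. The synthetases centre near 0 (medians -0.11 and 0.015), whereas macrophage and fibroblast markers lie to the right (medians 0.49 and 0.825).

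The upstream regulator and the other targets of the amino acid response gave no single direction. *Atf4* had 13.47 ± 0.25 in MYTHO-KD and 13.71 ± 0.24 in scramble (difference -0.24, interval -0.649 to 0.169, unadjusted p = 0.225). *Asns*, the asparagine synthetase and a standard target, differed by 0.07 (interval -0.582 to 0.722, unadjusted p = 0.819), and *Ddit3*, the stress factor CHOP, by 0.25 (unadjusted p = 0.298), or by -0.02 when its probe sets were averaged. None of these 3 passed the test.

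Of the 20 genes on the ATF4 list, 3 were higher and 1 lower at an unadjusted p under 0.05 (20%, against 12% of all probe sets), around a median of 0.03. *Atf3*, a stress-induced factor, had 9.33 ± 0.39 and 7.87 ± 0.69 (difference 1.46, interval 0.772 to 2.15, unadjusted p = 0.0006, adjusted p = 0.0888). The mitochondrial one-carbon enzymes *Shmt2* (0.59, unadjusted p = 0.0222) and *Mthfd2* (0.40, unadjusted p = 0.0389) were higher, and *Psph*, the last step of serine synthesis, was lower (-0.64, unadjusted p = 0.0323). The calls on *Shmt2* and *Psph* were lost without variance moderation (unadjusted p = 0.0528 and 0.0872). *Atf3* and *Iars*, whose windows hold the same 8 letters, thus differed in opposite directions.

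Amino acid transporters, which supply the substrates of the synthetases, held the gene with the lowest adjusted p of the related lists. *Slc38a4*, a sodium-coupled carrier of neutral amino acids, had 13.22 ± 0.44 in MYTHO-KD and 14.79 ± 0.37 in scramble (difference -1.57, interval -2.11 to -1.03, adjusted p = 0.0292), and fell to 33.7% of the scramble signal. *Slc7a8* (-0.59, unadjusted p = 0.0196) and *Slc7a6* (-0.64, unadjusted p = 0.0212), which exchange amino acids, were lower, and *Slc38a3*, a glutamine carrier, was higher (0.69, unadjusted p = 0.0310), without passing the adjustment. Of the 16 transporters 1 was thus higher and 3 lower at an unadjusted p under 0.05 (25%, against 12% of all probe sets), and the median was -0.095. Of these unadjusted calls only that on *Slc38a4* held in every setting. Those on *Slc38a3* and *Slc7a6* were lost without variance moderation (unadjusted p = 0.0909 and 0.0586) and with unequal variances. That on *Slc7a8* was lost with unequal variances (unadjusted p = 0.0601). The adjusted call on *Slc38a4* was lost without variance moderation (unadjusted p = 0.00157) and with unequal variances (unadjusted p = 0.00172). In each of these settings only 2 probe sets of the whole array passed the adjustment.

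The markers of other cell types give the setting in which these values were read. The macrophage list had a median difference of 0.49, with median averages of 7.31 in MYTHO-KD and 6.65 in scramble and single averages from 5.26 to 11.11 and from 5.19 to 9.56. *Cd68* differed by 2.53 (adjusted p = 0.0182) and *Lyz2* by 1.94 (adjusted p = 0.0277). The fibroblast and matrix list had a median of 0.825, with median averages of 10.44 and 9.48, and *Bgn* (1.94, adjusted p = 0.0290) and *Lum* (1.49, adjusted p = 0.0443) passed the adjustment. None of these adjusted calls held without variance moderation or with unequal variances. Every marker on both lists carried the flag for expression in both groups.

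The lists for other cells were closer to 0. Endothelial markers had a median of 0.37, with *Kdr* at 0.75 (unadjusted p = 0.00491) and *Eng* at 0.64 (unadjusted p = 0.0327). No lymphocyte marker of the 8 measured was called (median -0.20), and of 11 interferon-stimulated genes 1 was (9.09%), *Oas1a* (-0.73, unadjusted p = 0.00568). Of 12 fibre genes 3 were called (25%), against 12% of all probe sets. That share counts *Acta1*, *Myh4* and *Atp2a1*, which stood at the top of the scale (19.93, SD 0.00) in both groups. Differences beyond that limit could not be seen. The fast myosins *Myh1* (0.59, unadjusted p = 0.00873) and *Myh2* (0.41, unadjusted p = 0.0197) were higher and the calcium release channel *Ryr1* lower (-0.39, unadjusted p = 0.0461). *Myh2* was close to the top of the scale in MYTHO-KD (19.91), where a signal can no longer rise. The part of these shifts in the values of the synthetases was not tested.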

How the data were processed

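Total RNA of GAS muscle was hybridized to Clariom S Mouse arrays, 4 per group. The authors normalized the signals by SST-RMA with the default settings of the Transcriptome Analysis Console, and the processing notes also name Affymetrix Expression Console, RMA and mm10. The deposited table gives log2 averages per group, from 3.18 to 19.93, and a score of spread per group, the SD. The authors also deposited fold changes, p-values and false discovery rates, which were not used. Of its 28 columns 0 hold single arrays, so the planned linear model on arrays was replaced by limma's moderated test computed from averages and SDs.

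Both group variances of a probe set were averaged, which leaves 6 residual degrees of freedom, and shrunk by squeezeVar of limma 3.58.1 in R 4.3.3 (prior SD 0.284, prior degrees of freedom 5.85). P-values are two-sided and adjusted by Benjamini-Hochberg over 22206 probe sets. In 21 probe sets an SD was 0. The code was tested on simulated data. Promoter windows were searched in Python 3.11.15. Coordinates of genes are those of the table (mm10), and the number of arrays limits the precision.

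Genes were grouped by name, and the synthetases, the gene lists and the tests were chosen with earlier results of these data known. The text gives full values for synthetases with an unadjusted p under 0.05 and for the 3 largest rises and 3 largest falls in each compartment. In other lists it names genes with an unadjusted p under 0.05, at most the 4 with the lowest p. *Atf4*, *Asns*, *Ddit3*, *Aimp1*, *Aimp2*, *Eef1e1* and *D230025D16Rik* are named whatever their value. On the macrophage list and on the fibroblast and matrix list, only genes with an adjusted p under 0.05 are named. The fibre genes at the top of the scale are named as well. Alternatives were unequal variances, no moderation, robust moderation with a trend, a floor on the mean signal (the 30th percentile, 5.715), 1 probe set per symbol, averaging probe sets, centring and other thresholds.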

Additional observations from a re-analysis of the deposited data

How the results depend on the processing

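No paired analysis was possible because the table holds group averages and no values of single arrays, and for the same reason no replicate could be left out. The kind of average is not given in the sources used here, and robust averages in place of plain means would make these p-values too small. No synthetase passed the 2-fold threshold or the adjusted threshold of 0.05 or 0.1 in any setting, and with 1.5-fold in place of 2-fold the count was 1, a lower one (*Iars*). The lowest adjusted p among the synthetases ran from 0.111 (trend) to 0.344 (unequal variances). *Iars* and *Farsa* had an unadjusted p under 0.05 in every setting. Of the 2 synthetases called higher, 1 remained without moderation and 1 with unequal variances (*Yars2* lost, unadjusted p = 0.0596 and 0.0597), and of the 2 called lower, 1 remained after centring (*Sars* lost). *Ears2* was dropped as dim, and *Aars* had no probe set of its own to average. Among the related genes, the 13 calls became 8 with unequal variances, and the 4 higher ones became 2 with unequal variances and 2 without moderation. Among the markers, the 19 higher calls became 12 with unequal variances and 12 without moderation, and the 2 lower ones became 1 without dim probe sets and 1 after centring. The calls on *Pstk*, *Brf2*, *Psph*, *Shmt2*, *Slc38a3*, *Slc7a6* and *Eng* were lost both with unequal variances and without moderation, those on *Slc7a8* and *Elac1* with unequal variances, those on *Elac1* and *Mthfd2* with a trend, and those on *Elac1* and *Ryr1* after centring. *Ddit3* turned from 0.25 to -0.02 when its probe sets were averaged. Over the array, 61 probe sets passed the adjusted threshold, against 2 with unequal variances, 2 without moderation, 189 with a trend, 78 without dim probe sets, 62 with 1 probe set per symbol and 63 after centring. The adjusted calls on *D230025D16Rik*, *Cd68*, *Lyz2*, *Bgn*, *Lum* and *Slc38a4* were lost with unequal variances and without moderation. Their lowest unadjusted p there was 0.00088 (*D230025D16Rik*, no moderation). The cause of these shifts was not tested.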
